A study of Zea mays with 3 samples.

Results

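Anthers of the Mu-inactive maize line were followed across a single developmental step, from 1.0 mm to 1.5 mm in length. The members are the Mu-inactive channels of 4 arrays at 1.0 mm and 4 arrays at 1.5 mm, 8 of the 12 arrays in the experiment, and each array carries 42034 probes for maize transcripts. Each array was hybridized with anther RNA of 2 maize lines, a Mu-active line, whose Mutator (Mu) transposons can move, and a Mu-inactive line, whose elements are quiet. The lines were labeled with Cy3 and Cy5, with the dyes exchanged in 2 of the 4 arrays of a stage, and the plants were untreated and field grown. The labels do not state whether the 4 RNA samples of a stage came from separate plants or pools, so the spread between arrays may in part be technical.

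In maize the length of an anther marks its stage. At 1.0 mm the archesporial cells, the founders of the male germ line, have ended their mitotic divisions, and the somatic wall of epidermis, endothecium, middle layer and tapetum is in place. By 1.5 mm the pollen mother cells that derive from the archesporial cells have started prophase of the first meiotic division in the inbred W23, and later than that in other inbreds, while the tapetum, which later feeds the meiocytes and the pollen, continues to differentiate. The labels do not name the inbred of the Mu lines. The whole anther was sampled, so a transcript can shift because its level per cell changed or because the share of a cell type in the anther changed, and these cannot be told apart.

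Each stage occupied 1 slide with its 4 arrays, and the slides were scanned at different times with differently named scanner protocols. Stage and slide therefore cannot be told apart, and no p-value is given between the stages. Differences are given as fold sizes of mean normalized intensities with the spread over 4 arrays. A cutoff was set for each channel at the mean of its 153 negative control spots plus 3 SD, which gave 81.1 to 90.2 intensity units. A stage was ON for a probe that passed the cutoff in 3 or 4 of its 4 arrays. No background was subtracted, so a probe near the cutoff carries mostly background and folds that start or end there are understated. A probe was said to rise or fall when it changed 2-fold or more, was ON at the brighter stage, and had all 4 arrays of the brighter stage above all 4 of the dimmer stage. The sample labels name the dye of each line for numbered replicates without tying a number to an array. The line in each channel was taken from the direction of the deposited ratios, and read by array number the labels would exchange the lines. Intensities of the mudrA and mudrB probes, which represent genes of the Mu element, differed between the lines at 1.0 mm by less than the larger SD. A mudrA probe gave 406 ± 113 (SD, n = 4) in the Mu-inactive and 398 ± 73.2 in the Mu-active channel, and the mudrB probe gave 282 ± 34.3 and 372 ± 108. At 1.5 mm the mudrB probe gave 213 ± 24.7 in the Mu-inactive and 267 ± 22.3 in the Mu-active channel, and the probe MUDR-TIRA gave 156 ± 18.7 and 221 ± 49.1, both apart by more than the larger SD, while the mudrA probes were not.

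Signals were closer to background at 1.5 mm. Over the arrays, the median raw intensity of a channel divided by the average of its negative controls was 1.65 to 2.27 at 1.0 mm and 1.29 to 1.44 at 1.5 mm. After normalization, 31326 probes (74.5%) were ON at 1.0 mm and 27768 (66.1%) at 1.5 mm. Both stages shared 27015 of these probes, 4311 were ON at 1.0 mm only, and 753 at 1.5 mm only. The lower count at 1.5 mm moves with the lower raw signal of that slide, and the part of the signal in it was not tested. Arrays within a stage had a Pearson correlation of log2 intensities across probes of 0.956 to 0.980, and arrays of different stages one of 0.921 to 0.952. The median SD over 4 arrays was 0.179 on the log2 scale at 1.0 mm and 0.198 at 1.5 mm.

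Most ON probes kept their normalized intensity within 2-fold between the stages, and a small set changed. The median normalized intensity was 112 in each channel, close to the cutoff, so many of these folds are understated. Of 32079 probes ON at either stage, 389 rose (1.21%) and 457 fell (1.42%), while 31233 did neither. The median log2 ratio of 1.5 mm over 1.0 mm was -0.02 over all ON probes, with quartiles of -0.22 and 0.19. The risen probes had a median log2 ratio of 1.32 and the fallen probes one of -1.28. A change of 4-fold or more was seen in 56 risen and 58 fallen probes, and one of 8-fold or more in 18 and 15. Without regard to size, all 4 arrays at 1.5 mm lay above all 4 at 1.0 mm for 9.89% of the ON probes, and below them for 11.9%. A further 275 probes rose in mean by 2-fold or more and 146 declined as much, but with arrays of the stages that overlapped. With channels scaled to a common median in place of quantile normalization, 216 probes rose and 1247 fell, so that 14.8% of the called probes had risen against 46.0% in the main analysis. The balance of rise and fall thus depends on the scaling. With the processed intensity signals of the scanner software 1869 probes rose and 2926 fell, so the number of calls depends on the intensity measure.

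**Figure D1:**
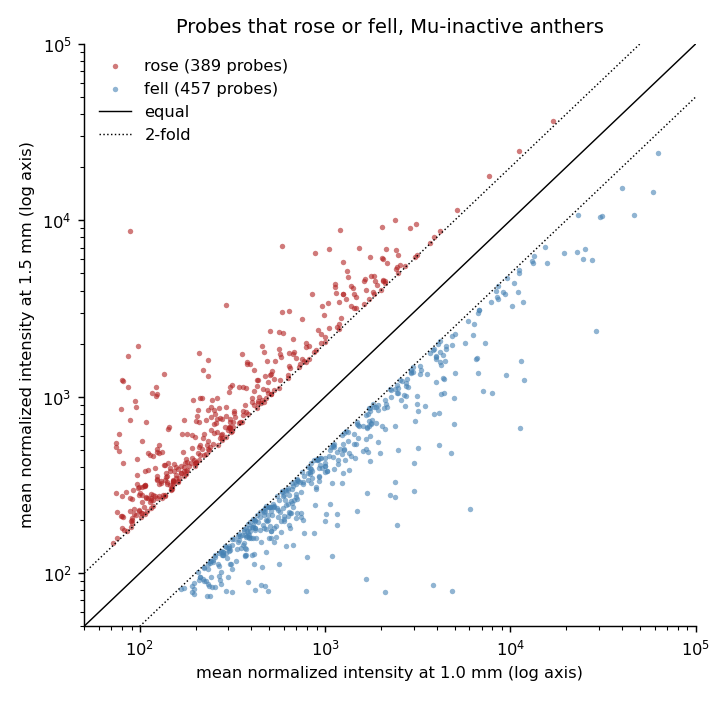
Mean normalized intensity of the Mu-inactive line at 1.0 mm (horizontal) and 1.5 mm (vertical) for the 846 probes that changed, each point a mean of 4 arrays, on log axes. The 389 risen probes (red) lie above the upper dotted 2-fold line and the 457 fallen probes (blue) below the lower one, with a few far from the others.

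Gene models could be attached to 7745 probes through the study's supplementary tables, and 7074 of these were ON. They held 134 risen probes (1.89%) and 127 fallen probes (1.80%). The study picked many of these probes from its own samples, the 1.0 mm arrays among them, so they are not a random part of the array. A description of the gene was at hand for 42 risen and 45 fallen probes.

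Among genes tied to phosphate supply, 5 of 11 ON probes fell and 0 rose, in an annotation list drawn up after these values had been seen. PPCK3 (GRMZM2G096753) encodes a kinase that phosphorylates phosphoenolpyruvate carboxylase, the enzyme that fixes bicarbonate into oxaloacetate. In Arabidopsis such kinase genes are induced when phosphate is short. Its probe TC310792 gave 2707, 10849, 12163 and 19775 in the 4 arrays at 1.0 mm and 1725, 2336, 1516 and 824 at 1.5 mm. The stages did not overlap, though array 1 at 1.0 mm came close to the 1.5 mm range, and the mean fell 7.11-fold from 11374 ± 6990 to 1600 ± 624 (SD, n = 4). Its relative PPCK1 (GRMZM2G178074) fell 4.84-fold, from 3859 ± 1692 to 797 ± 224. PPCK4 (GRMZM2G049541) had means of 27055 ± 12830 and 7677 ± 2974, and array 1 at 1.0 mm (10301) lay below the highest 1.5 mm array (11106), so the rule was not met.

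SPX domains bind inositol pyrophosphates and report the phosphate state of a plant cell. The probe of GRMZM2G171423, described by an SPX domain, gave 1424, 4216, 5471 and 5266 at 1.0 mm and 1012, 932, 766 and 538 at 1.5 mm, a 5.04-fold fall. An ids4-like gene (GRMZM5G828488) fell 4.29-fold, from 1057 ± 489 to 247 ± 48.5. A glycerol 3-phosphate permease gene (GRMZM5G843302) fell 4.18-fold, from 4380 ± 2141 to 1048 ± 371. A second permease probe, of GRMZM5G834518, had means of 454 ± 161 and 255 ± 78.6 with arrays that overlapped. Beside the 5 of 11 that fell stand 1.80% of all ON probes with a gene model, and the median log2 ratio of the list was -1.82. The list was drawn up with these falls known, so its counts and median are not a test of it. Of the 11, 1 fell in the Mu-active channel, where the median of the list was -1.17 and 0.634% of all ON probes fell. The phosphate transporter genes pht1, pht2 and pht7 did not meet the rule, and the probe of pht2 (GRMZM2G154090) was bright only in array 1 at 1.5 mm (541, against 94.6 to 96.5 in the other 3 arrays). Array 1 at 1.0 mm gave the lowest of the 4 values for 9 of the 11 probes. Without it, 7 of the 11 fell and the median was -2.09.

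Probe TC310792 (PPCK3) and the phenylalanine ammonia-lyase probe TC310207 described further on stand for the fall and the rise of genes with a known enzyme, and TC306708 is the fallen probe with the largest ratio of means. The first 30 of their 60 bases are given 5′ to 3′ from the study's supplementary tables, to show what the arrays measured.
TC310792 (PPCK3): tgtattgccgtagagacacagattcggcaa
TC310207 (phenylalanine ammonia-lyase): cccaatttatttattgtcgttgatatgcta
TC306708 (GRMZM2G325623): acgcgcgcgtatatacatataggatccgtc

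The described gene with the largest fall was methyl esterase 1 (GRMZM2G022934). Plant methyl esterases release hormones such as salicylic acid and jasmonic acid from their methyl esters. The probe gave 6857, 10560, 10698 and 16891 at 1.0 mm and 462, 518, 1321 and 340 at 1.5 mm. The lowest 1.0 mm array was 5.19 times the highest 1.5 mm array, and the mean fell 17.0-fold. The thiamine biosynthesis gene thi1 (GRMZM2G018375) fell 8.82-fold, from 4109, 2112, 2306 and 1006 to 265, 419, 211 and 186. A probe of GRMZM2G102811, described as an enzyme of thiazole monophosphate biosynthesis, moved the other way, from 426 ± 250 to 1152 ± 277. In the hormone list, 2 of 38 ON probes fell (5.26%, against 1.80% of ON probes with a gene model) and 0 rose. With channels scaled to a common median 6 fell. Over the whole array 1247 probes fell with that scaling, against 457 in the main analysis. A SAUR gene (GRMZM2G045243), of a family induced early by auxin, fell 4.99-fold from 2482 ± 799 to 497 ± 145, and the lipoxygenase gene lox4 (GRMZM2G109056) fell 2.02-fold from 2993 ± 477 to 1480 ± 209. A gene for an AAA-type ATPase (GRMZM2G071272) fell 3.37-fold, with 811 to 2152 at 1.0 mm and 204 to 676 at 1.5 mm.

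Transcription factors fell more often than they rose. Of 120 ON probes in the list, 12 fell (10.0%, against 1.80% of ON probes with a gene model) and 2 rose (1.67%, against 1.89%). The median log2 ratio of the list was -0.16, and 73 of its 120 probes had a ratio below 0. When an array was left out, 9 to 15 fell and 2 to 4 rose, with 4 risen without array 1 at 1.0 mm. In the Mu-active channel of the same arrays 3 fell and 1 rose, beside 0.634% and 0.588% of all its ON probes.

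The factor with the largest fall was yabby15 (GRMZM2G529859), of the YABBY family that marks the lower side of lateral organs in Arabidopsis. It gave 1605, 4347, 2502 and 3660 at 1.0 mm and 236, 301, 474 and 155 at 1.5 mm, a 10.4-fold fall without overlap. In the Mu-active channel it met the same rule, with a log2 ratio of -3.96. WRKY factors take part in responses to pathogens and stress. A gene described as WRKY69 (GRMZM2G324999) gave 759, 1810, 2153 and 2032 at 1.0 mm and 221, 246, 380 and 291 at 1.5 mm, a 5.94-fold fall, and another with the same description (GRMZM2G053507) fell from 1386 ± 325 to 461 ± 152. A WRKY probe of GRMZM2G139815 fell from 929 ± 164 to 332 ± 79.1. A helix-loop-helix gene (GRMZM2G145909) fell 3.79-fold, from 1351, 1483, 1275 and 795 to 228, 276, 338 and 452. The remaining fallen factors of the list took smaller steps, with log2 ratios from -1.38 (MYB94, GRMZM2G056407) to -1.01 (a zinc finger homeodomain gene, GRMZM2G353076). ZAG5 (GRMZM2G003514), a MADS box gene, was among them, with 221 ± 69.5 at 1.0 mm and 90.4 ± 10.9 at 1.5 mm, the latter close to the cutoff.

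The factors that rose were bZIP61 (GRMZM2G137046), a basic leucine zipper gene, and a Myb gene (GRMZM2G041415). The bZIP61 probe gave 163, 102, 103 and 95.6 at 1.0 mm, near background, and 1574, 1338, 823 and 482 at 1.5 mm, a 9.09-fold rise. The Myb probe rose from 531 ± 162 to 1258 ± 363. Outside the list, DBP4 (GRMZM2G380377), described as a DRE-binding protein of the kind that acts in cold and drought responses, rose 3.79-fold on average, but its stages were barely apart, with 143 in the highest 1.0 mm array and 150 in the lowest 1.5 mm array.

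Several genes of the plastid rose. Probe TC312721 of dxs1 (GRMZM2G137151), which encodes the first enzyme of the plastid isoprenoid pathway, gave 789, 418, 675 and 675 at 1.0 mm and 3227, 4281, 2460 and 2223 at 1.5 mm. All 1.5 mm arrays were well above all 1.0 mm arrays, and the rise was 4.77-fold. The protochlorophyllide reductase gene pcr1 (GRMZM2G084958), for a step of chlorophyll synthesis, rose 4.49-fold from 1762, 1527, 2388 and 2467 to 13288, 10960, 5296 and 6985. Its mean went the other way in the Mu-active channel, from 12030 ± 12036 to 6650 ± 2286, a log2 ratio of -0.86 with a spread as wide as the mean at 1.0 mm. A gene for an early light-induced protein (GRMZM2G355752), of a thylakoid family that accumulates under light stress, rose 6.56-fold, from 311 to 1652 at 1.0 mm to 4796 to 8521 at 1.5 mm. In the Mu-active channel it also met the rule, with a log2 ratio of 3.57. The ferredoxin gene fdx5 (GRMZM2G122327), for an electron carrier, rose 3.71-fold from 315 ± 163 to 1167 ± 554.

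Smaller rises were seen in a gene for subunit K of the chloroplast NAD(P)H-quinone oxidoreductase (GRMZM5G800980, from 1438 ± 311 to 3824 ± 1341), in PSA3 (GRMZM2G051403, from 196 ± 11.6 to 439 ± 86.5), which is needed for photosystem I assembly, and in gpb1 (GRMZM5G845611, from 105 ± 11.9 to 237 ± 107), a glyceraldehyde-3-phosphate dehydrogenase gene of the Calvin cycle. Over an annotation list of plastid genes drawn up after these values had been seen, 8 of 21 ON probes rose and 0 fell. Beside this stand 1.89% and 1.80% of all ON probes with a gene model, and the median log2 ratio was 0.69. The list was drawn up with these rises known, so its counts and median are not a test of it. The risen probe not named above belongs to GRMZM2G019260, described as a phosphomevalonate kinase. That description does not place the gene in the plastid, so the 8 and the 21 include probes that may not belong. This risen probe had a log2 ratio of 1.55, and the other probes of that gene model, also in the list, had -0.30 and 0.05. When an array was left out, 7 to 9 rose and up to 2 fell. A plastidic phosphate translocator-like gene (GRMZM2G062555) was at 6484 ± 1792 and 3343 ± 556, just short of 2-fold. In the Mu-active channel 2 of the 21 met the rule for a rise, beside 0.588% of all its ON probes, and the median of the list was 0.19.

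In the photosynthesis list, 1 of 14 ON probes rose (7.14%, against 1.89% of ON probes with a gene model) and 0 fell. The median log2 ratio was 0.68, with 12 of 14 above 0 against 47.4% of all ON probes. In 6 of 14 all 4 arrays at 1.5 mm lay above all 4 at 1.0 mm, against 9.89% of all ON probes. The risen probe belongs to the gene of PsaF (GRMZM2G085646), the subunit of photosystem I that docks plastocyanin. It gave 1838, 1146, 998 and 1319 at 1.0 mm and 3840, 8436, 3510 and 3324 at 1.5 mm, a 3.60-fold rise. Genes for plastocyanin (GRMZM2G071450, 2402 ± 1203 and 5134 ± 1263) and for psaN (GRMZM2G080107, 2561 ± 783 and 6891 ± 3949) changed over 2-fold in mean with arrays that overlapped. The probe of the large subunit of ribulose bisphosphate carboxylase (GRMZM5G815453), a chloroplast transcript, was at 15161 ± 6297 and 12290 ± 6534. Without array 1 at 1.0 mm 4 of the 14 rose, without array 3 at 1.5 mm 3, and without array 4 at 1.5 mm 2. With the processed signals 8 rose, with the Cy5 arrays alone 5 and with the Cy3 arrays alone 3. The Mu-active channel gave a median of 0.05 and 0 calls, beside 0.588% risen and 0.634% fallen of all its ON probes. The difference between the lines was not tested.

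Genes for phenylalanine ammonia-lyase, an NADPH oxidase and a glutathione S-transferase also rose. Phenylalanine ammonia-lyase opens the phenylpropanoid pathway, from which lignin, flavonoids and sporopollenin precursors derive. The probe of a gene with this domain (GRMZM2G170692) gave 2259, 934, 908 and 720 at 1.0 mm and 3082, 17320, 8040 and 6661 at 1.5 mm, a 7.28-fold rise, and in the Mu-active channel the log2 ratio was 4.01 with overlap of the arrays. The NADPH oxidase gene rbohD (GRMZM2G441541), for an enzyme that makes superoxide at the plasma membrane, rose 3.63-fold from 200 ± 49.5 to 726 ± 387. In the redox and detoxification list, 1 of 31 ON probes rose (3.23%) and 2 fell (6.45%). Of ON probes with a gene model, 1.89% rose and 1.80% fell. Without array 1 at 1.0 mm 3 probes of the list rose, and 2 without array 3 or array 4 at 1.5 mm. GST25 (GRMZM2G161905), a glutathione S-transferase gene, rose 3.44-fold from 179 ± 28.1 to 615 ± 230, whereas its family member GST38 (GRMZM2G066369) fell 2.04-fold from 605 ± 181 to 297 ± 107. A thioredoxin-fold gene (GRMZM2G023711) fell 2.14-fold, from 710 ± 84.6 to 331 ± 68.6.

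The described gene with the largest rise was a branched-chain-amino-acid aminotransferase (GRMZM2G153536), for the last step in the synthesis of leucine, isoleucine and valine. Its arrays at 1.0 mm lay at 106 to 176 and those at 1.5 mm at 1475, 2991, 250 and 686. The fold of 10.0 rests on a wide spread, since array 3 at 1.5 mm was only 1.42 times the highest 1.0 mm array. A gene described as ABA/WDS induced (GRMZM2G383699) likewise rose 3.96-fold with 394, 1085, 158 and 309 at 1.5 mm against 111 to 134 at 1.0 mm. Tighter values were found for a gene with RCC1 repeats (GRMZM2G302245), a fold first known from a chromatin-bound exchange factor. It rose 4.67-fold from 230, 186, 170 and 253 to 792, 801, 1160 and 1164. A gene for a subunit of the inner mitochondrial membrane translocase (GRMZM2G029385) rose 3.68-fold from 752 ± 234 to 2765 ± 891.

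**Figure D2:**
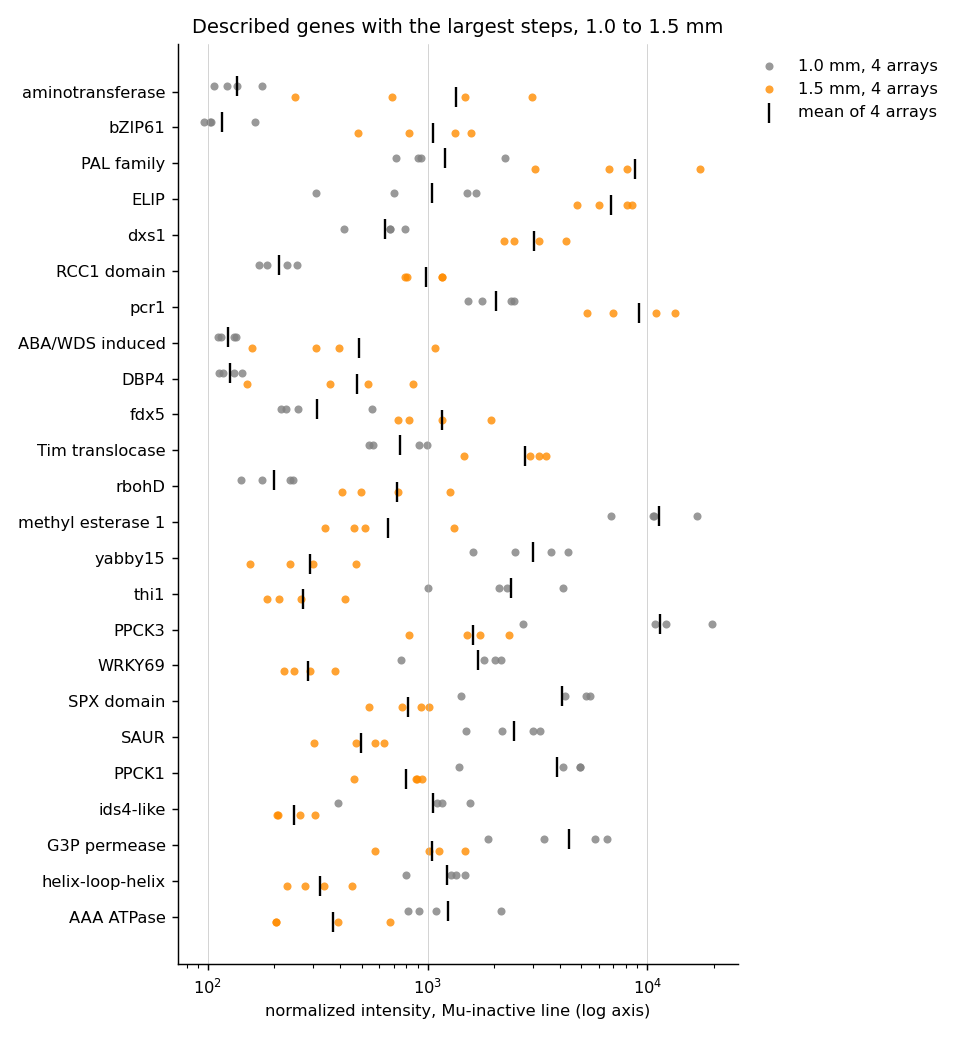
Normalized intensity (horizontal, log axis) in each of the 4 arrays at 1.0 mm (gray) and 1.5 mm (orange) for the 12 described genes that rose and the 12 that fell with the largest log2 ratios, with the mean of 4 arrays as a black bar. The stages lie closest for DBP4, PPCK3 and the ABA/WDS induced gene, and the aminotransferase has a wide spread at 1.5 mm. By contrast, dxs1, yabby15 and methyl esterase 1 leave a clear gap between these stages.

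In the list of mitotic cyclins and kinesins 2 of 4 ON probes rose (against 1.89% of ON probes with a gene model) and 0 fell, and both probes belong to 1 gene. Of 5 ON probes of that list in the Mu-active channel, 0 rose, beside 0.588% of all ON probes of that channel. Kinesins are motor proteins of the spindle and of transport along microtubules. Both probes of a kinesin gene (GRMZM2G338928) rose, the first from 120, 94.5, 98.3 and 110 to 427, 585, 276 and 227, and the second from 90.1 ± 4.57 to 201 ± 49.4. These 1.0 mm values lie near the cutoff. The brighter probe of KIN6 (GRMZM2G114861) was at 327 ± 75.4 and 286 ± 57.6. A cyclin delta-2 gene (GRMZM2G476685), outside the list and named after its values were seen, fell from 2951, 3498, 4428 and 3890 to 2034, 1909, 1835 and 1341. In the DNA replication list 0 of 4 ON probes met the rule, beside 1.89% risen and 1.80% fallen of ON probes with a gene model. The probe with the largest step there, of a CDT1-like replication licensing gene (GRMZM2G035665), gave 421, 468, 506 and 475 at 1.0 mm and 253, 266, 209 and 296 at 1.5 mm, without overlap but under 2-fold. The histone list held 2 ON probes, both without overlap and under 2-fold, for H2A (93.9 ± 8.12 and 136 ± 6.70) and H4 (86.4 ± 1.71 and 104 ± 11.2). At any fold, 9.89% of all ON probes were higher at 1.5 mm without overlap, and 11.9% were lower.

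Meiotic genes were at low intensity at both stages, and 0 of the 6 ON probes of the list met the rule. Of all ON probes with a gene model 1.89% rose and 1.80% fell, so 0 calls in 6 probes is no sign of stability. Ameiotic1 (GRMZM5G883855), required to enter meiosis, was at 198 ± 39.3 and 162 ± 7.98. The probes of Afd1 (GRMZM2G059037), a meiotic cohesin, were at 168 ± 36.1 and 157 ± 11.2 for the brighter one. Spo11-1 (GRMZM2G129913), for the enzyme that makes meiotic double-strand breaks, was at 193 ± 25.2 and 171 ± 3.93 by the first probe and at 140 ± 27.0 and 93.2 ± 17.2 by the second. Phs1 (GRMZM2G100103), which acts in homologous pairing, was at 113 ± 22.8 and 140 ± 14.6. The mudrA and mudrB probes did not meet the rule either. The mudrA probe above was at 406 ± 113 and 208 ± 31.0, a second mudrA probe at 310 ± 69.2 and 162 ± 24.7, and mudrB at 282 ± 34.3 and 213 ± 24.7.

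Of the regulators with a known place in the anther wall, Ocl4 (GRMZM2G123140), an epidermal homeodomain gene that limits cell division below the epidermis, fell by its brighter probe from 3898, 4365, 6168 and 4852 to 1512, 1430, 3805 and 2142. The 2.17-fold change left little room, since the highest 1.5 mm array lay just under the lowest 1.0 mm array, and the dim second probe was at 126 ± 23.2 and 101 ± 7.89. The response regulator gene RR7 (GRMZM2G096171), of cytokinin signaling, was at 1175 ± 329 and 577 ± 392 with overlap. A bHLH30 gene (GRMZM2G036092) was at 3444 ± 879 and 2589 ± 1331. Ms26 (GRMZM2G091822), a cytochrome P450 of the tapetum needed for pollen wall formation, stayed near the cutoff at both stages, with 91.6 ± 4.10 and 94.0 ± 12.6, and was brighter at 2.0 mm, with 155 ± 33.8.

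In several lists no probe met the rule for a rise or a fall, namely the 14 ON probes of cytosolic ribosomal proteins, 15 of heat shock proteins, 19 of cell wall synthesis and loosening, 21 of lipid transfer and wall lipids, 10 of proteases, 10 of sugar transport and starch, and 22 of RNA-binding and small RNA proteins. Their median log2 ratios lay between -0.09 and 0.11. Of all ON probes with a gene model 1.89% rose and 1.80% fell. Lists this small can therefore hold 0 calls without being more stable than the rest. Outside these lists, and named after their values were seen, a gene described as ribosomal protein S2 (GRMZM2G126821) rose from 227 ± 20.5 to 741 ± 124 and the invertase gene ivr2 (GRMZM2G089836) rose from 913 ± 524 to 2377 ± 442. The probe of a lipid transfer protein gene (GRMZM2G448739) gave 1039, 323, 113 and 827 at 1.0 mm and 8203, 18195, 213 and 3519 at 1.5 mm, a log2 ratio of 3.71 with array 3 low at both stages. In the list of pollen-specific proteins, checked as a sign of older anthers, 1 of 4 ON probes fell and 0 rose, and the fallen probe, of a major pollen allergen gene (GRMZM2G094990), was at 489 ± 178 and 199 ± 38.3. A second ON probe of that gene model had a log2 ratio of -0.12. The summed intensity of the 4 probes was 625 to 1082 over the 1.0 mm arrays and 467 to 572 over the 1.5 mm arrays. The fallen probe carries a large part of the sum at 1.0 mm, so the sum does not speak for the list as a group.

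The middle layer and tapetum held more fallen than risen probes, and the outer layers held many of both. The study listed probes enriched in layers cut by laser from younger anthers, which are other samples on other arrays. Its list for connective tissue and vasculature came instead from probes that were lower in all of the cut samples, and that tissue was not cut itself. Of 917 ON probes of the middle layer and tapetum, 33 fell (3.60%) and 4 rose (0.436%), against 1.42% and 1.21% of all ON probes. The fallen probes exceeded the risen ones there also when any array was left out, with 31 to 47 fallen and 3 to 6 risen. With channels scaled to a common median 84 fell and 1 rose. Over the whole array that scaling gave 1247 fallen and 216 risen probes, against 457 and 389, which also bears on the scaled counts of the layer lists below. In the Mu-active channel 14 of 923 ON probes of this list fell and 4 rose, beside 0.634% and 0.588% of all its ON probes. The largest falls were those of the probe TC279595, from 11957, 23932, 45948 and 34771 to 1148, 2573, 2407 and 3346, and of WRKY69 and TC280961, the latter only just without overlap. For TC279595 no gene name was at hand.

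Among 1055 ON probes of epidermis and endothecium, 53 rose (5.02%) and 41 fell (3.89%), both above the shares over all ON probes. Without array 1 at 1.0 mm the number that rose was 99, and with channels scaled to a common median 29 rose and 81 fell. The Mu-active channel had 19 risen and 15 fallen probes of this list, beside 0.588% and 0.634% of all its ON probes. Beside bZIP61, the largest rises were those of GRMZM2G025855 and GRMZM2G360517, which carry no description. GRMZM2G025855 gave 98.1, 72.7, 109 and 112 at 1.0 mm, and 2328, 3148, 1441 and 844 at 1.5 mm. GRMZM2G360517 gave 343, 222, 266 and 338, and then 2383, 4473, 3812 and 2516. In the Mu-active channel the log2 ratios of these genes were 0.33 and -1.14.

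Of 1922 ON probes of archesporial cells, 33 rose (1.72%) and 15 fell (0.780%), and scaling to a common median turned this to 17 and 63. Without array 3 at 1.5 mm 64 rose, and without array 1 at 1.0 mm 23 fell. The Mu-active channel had 24 risen and 8 fallen, beside 0.588% and 0.634% of all its ON probes. The median log2 ratio was 0.08 and became -0.11 with that scaling. The largest changes were PPCK1, RCC1 and GRMZM2G058138, which carries no description. The last gave 959, 829, 112 and 117 at 1.0 mm, high in Cy5 and low in Cy3, and 2628, 1965, 2341 and 2455 at 1.5 mm. Of 808 ON probes of connective tissue and vasculature, 19 fell (2.35%) and 9 rose (1.11%), with 45 and 3 after scaling, 31 and 11 without array 1 at 1.0 mm, and 21 and 1 in the Mu-active channel. Here the largest falls were those of GRMZM2G325623, yabby15 and GRMZM2G086805. The last, with no description, fell 7.60-fold from 7885, 6653, 6452 and 10748 to 1223, 1005, 777 and 1173, while its Mu-active means were 5027 ± 995 and 6256 ± 3082.

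**Figure D3:**
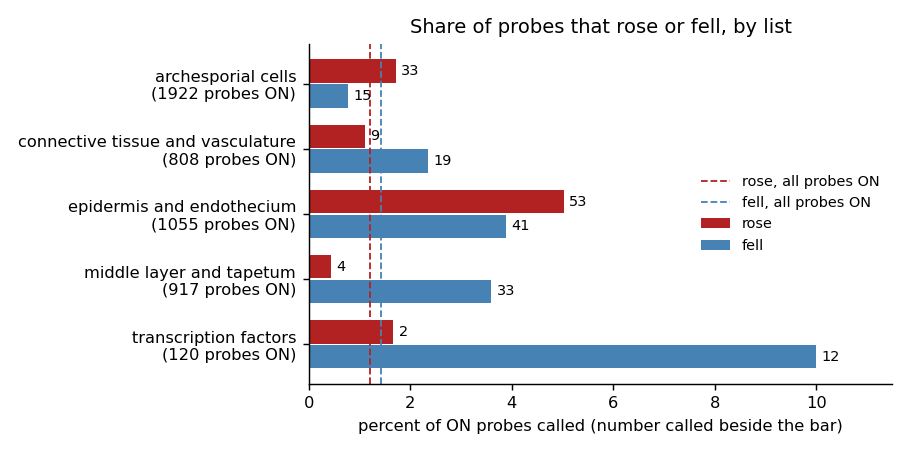
Percent of ON probes that rose (red) or fell (blue) from 1.0 mm to 1.5 mm in each layer list and in the transcription factor list, with the number of probes beside each bar, and dashed lines at 1.21% (rose) and 1.42% (fell) for all ON probes. The bars of transcription factors, at 12 fallen and 2 risen of 120, and of the middle layer and tapetum, at 33 and 4 of 917, are the most one-sided.

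The steps of largest size did not come from described genes. The probe DN830835 gave 87.7, 74.3, 103 and 87.5 at 1.0 mm and 10393, 10256, 9868 and 4216 at 1.5 mm, a 98.6-fold rise. The probe TC306708, of GRMZM2G325623, gave 3856, 6985, 6251 and 2372 at 1.0 mm and 83.6, 63.8, 85.1 and 82.2 at 1.5 mm, a ratio of means of 61.8. At 1.5 mm 1 of its 4 arrays passed the cutoff, so this ratio is set against values at background. A second probe of this gene model (TC306709) fell as well, with a log2 ratio of -2.71. The probe BM378471 was below the cutoff in all 4 arrays at 1.5 mm and was at least 24.1-fold lower there than at 1.0 mm, where it had 3723, 1765, 1838 and 1125. These probes, apart from TC306708, were chosen after their values were seen.

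Many of these probes were bright in some arrays and at background in others of a single group. In the Mu-active channel at 1.0 mm, DN830835 gave 5746, 6136, 3978 and 81.2, and at 2.0 mm it gave 2453, 156, 73.3 and 76.7. TC306708 gave 96.8, 121, 4407 and 4042 in the Mu-active channel at 1.0 mm, and TC288162, with 5611, 3827, 232 and 5584 in the Mu-inactive channel at 1.0 mm and 71.6 to 120 at 1.5 mm, returned to 159, 4954, 4265 and 3796 at 2.0 mm. Genes named above were not free of such spread. In the Mu-inactive channel at 2.0 mm, methyl esterase 1 gave 353, 3077, 358 and 322, and GRMZM2G025855 gave 1940, 68.8, 117 and 1419. Of the 33 probes that changed 8-fold or more, 24 (72.7%) spanned at least 8-fold over the 4 arrays of a Mu-active group or of the Mu-inactive 2.0 mm group, which the calls did not use. Over the 81 probes that changed 4-fold to under 8-fold this was 40.7%, over the 732 probes that changed 2-fold to under 4-fold it was 5.74%, and over all ON probes it was 1.64%. The part that this behavior has in the large steps was not tested.

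**Figure D4:**
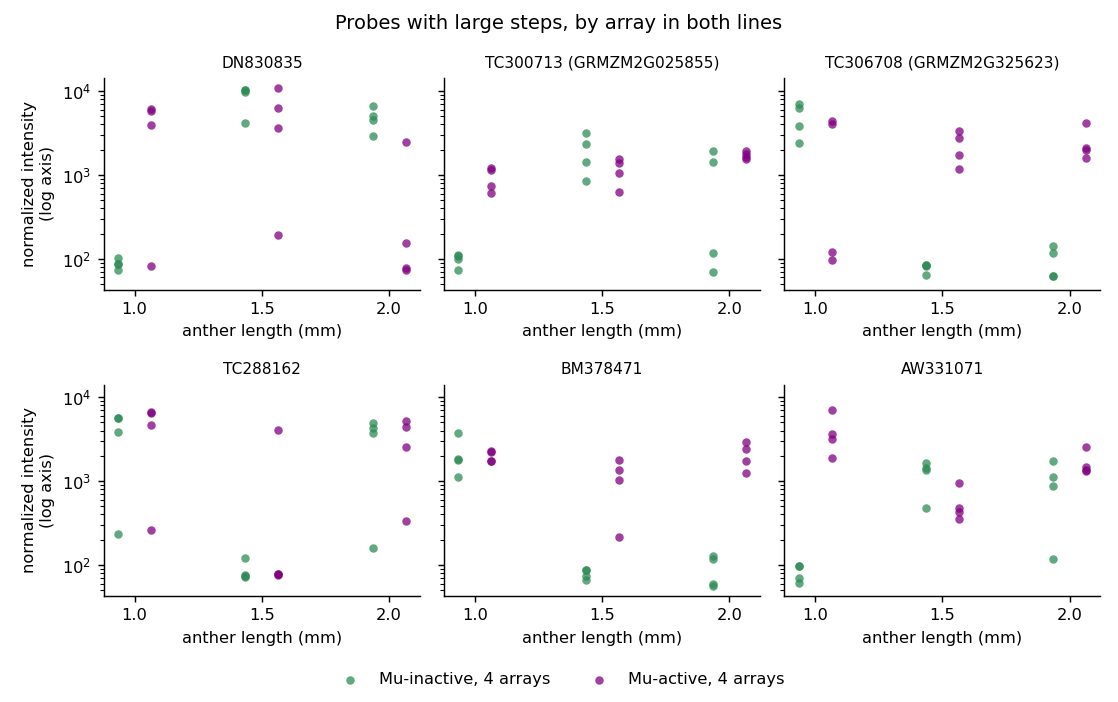
Normalized intensity (vertical, log axis) of 6 probes with large steps in each array of the Mu-inactive line (green) and the Mu-active line (purple) at 1.0, 1.5 and 2.0 mm, 4 arrays per line and stage. For DN830835 and TC306708 the Mu-active arrays at 1.0 mm split into a bright set and a set at background, with values from 81.2 to 6136 and from 96.8 to 4407.

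The Mu-active channel of the same arrays gives the same step in the other line, on the same slides, so it is no independent check of stage against slide. Of the 389 risen probes, 346 had a positive log2 ratio there, 134 were up 2-fold or more, and 55 met the rule, with a median log2 ratio of 0.76. Of the 457 fallen probes, 422 had a negative ratio, 171 were down 2-fold or more, and 93 met the rule, with a median of -0.88. Over all probes of the Mu-active channel 190 rose (0.588%) and 205 fell (0.634%). Among the 24 described genes of the largest steps, the early light-induced protein gene rose by the rule in both lines, and yabby15, the helix-loop-helix gene GRMZM2G145909 and the AAA-type ATPase gene GRMZM2G071272 fell by the rule in both.

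Where a gene model had more than 1 ON probe, the probes often differed in size. Of 19 such gene models with a risen probe, 16 had the same sign in every probe, and in 1, the kinesin gene, a second probe met the rule. Of 21 with a fallen probe, 17 had the same sign in every probe and GRMZM2G325623 was the case in which a second probe met the rule. The RCC1 gene had log2 ratios of 0.56 and 2.22, and the helix-loop-helix gene GRMZM2G145909 had -1.92 and -0.09.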

How the data were processed

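Scanner files of 2-color Agilent maize arrays were deposited by the authors, read with Agilent Feature Extraction (named in the submitters' processing notes), whose version is not given in the sources used here. The deposited values used are median foreground intensities of 43451 spots per channel on a linear scale, not normalized, and as an alternative the software's processed intensity signals. A deposited table of log2 ratios of the lines, 1 value per probe and stage, served only to read which line is in which channel. Here, loess was applied within each of the 12 arrays and the resulting channels were brought to common quantiles (limma 3.58.1, R 4.3.3), and, following the study's methods, no background was subtracted. The scale of both stages therefore depends on all 12 arrays. Means and SDs are over 4 arrays on the linear scale, and log2 ratios are of means, 1.5 mm over 1.0 mm. Negative controls give the detection cutoff. Outlier-marked and saturated spots were kept, and 0 spots were saturated.

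Probes were paired with gene models, descriptions and sequences through the study's supplementary tables, some of which were at hand in part, and 5311 of 6817 gene models were found in the RefSeq table of the assembly Zm-B73-REFERENCE-NAM-5.0, used for names only. Named were the 12 described genes with the largest log2 ratio each way, the 3 largest calls of each of 16 annotation lists and 4 layer lists, the study's meiotic genes and Mu probes, and regulators known from the anther wall. Genes named outside this rule are the members of the lists drawn up later, others used as examples of a list, and the probes of largest step, all chosen after their values were seen. The members and lists were chosen with earlier results of these data known. Not analysed here are the comparison of the lines as such and the 2.0 mm stage beyond the values given. The calls were tested on simulated data, and figures were drawn with Python 3.11.15. The number of arrays limits the precision.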

Additional observations from a re-analysis of the deposited data

Results flagged for a closer look

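Of 124 groups of 4 arrays checked among the named probes, 14 held an array far from the other 3 for the width of the group. The limit used is passed by about 1 in 20 groups of normally distributed values. These are linear intensities of probes partly picked for large steps, so the rate to expect here is not known. At 1.0 mm array 1 was the highest for bZIP61 (163, next 103), phenylalanine ammonia-lyase (GRMZM2G170692, 2259, next 934), fdx5 (558, next 258) and TC292947 (88.6, next 77.4). At 1.5 mm array 2 was the lowest for PPCK1 (464, next 883) and TC306708 (63.8, next 82.2) and the highest for PsaF (GRMZM2G085646, 8436, next 3840). Array 4 was the highest for the pollen allergen gene (GRMZM2G094990, 256, next 185), TC280961 (96.3, next 76.4) and Ameiotic1 (174, next 160), and the lowest for DN830835 (4216, next 9868). Array 1 was the highest for Spo11-1 (TC306885, 177, next 170) and TC288162 (120, next 75.8), and array 3 for the dim probe of Ocl4 (TC311162, 113, next 99.0).

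In 3 probes every array of the lines stepped in opposite directions, and the difference between the lines was not tested. AW331071 had a log2 ratio of -2.83 in the Mu-active channel, from 1880 to 6985 at 1.0 mm down to 357 to 953 at 1.5 mm, and of 3.92 in the Mu-inactive channel, from 60.7 to 96.5 up to 477 to 1646. TC306503 had 2.88 in the Mu-active and -3.02 in the Mu-inactive channel. TC306567 had -1.12 and 1.41.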

How the results depend on the processing

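The 389 risen and 457 fallen probes became 216 and 1247 with channels scaled to a common median, 1869 and 2926 with the processed signals, 1164 and 1402 at 1.5-fold, and 56 and 58 at 4-fold. They were 910 and 824 with the Cy5 arrays alone, 609 and 756 with the Cy3 arrays alone, where fewer arrays have to be apart, and 190 and 205 in the other channel. Where arrays could overlap, 664 probes rose. With an array left out, 354 to 603 rose and 460 to 569 fell, and 1.0 mm array 1 (603) and 1.5 mm array 3 (590) moved the count of risen probes most. Normexp background, quantiles over 8 arrays, mean log2 values, 5 SD for detection and spot filters kept both counts within 1.5 times, and so did the counts of ON probes under the alternatives run on them. Of the scaled setting, 196 risen and 449 fallen probes were shared with the main analysis, and 0 probes reversed. In the other channel, which is the Mu-inactive line if the labels are read by array number, 8 named probes reversed, with log2 ratios of -0.855 (pcr1), 0.059 (TC306708), 0.315 (GRMZM2G086805), -1.144 (GRMZM2G360517), 0.216 (TC280961), -2.109 (TC292947), -2.832 (AW331071) and 0.302 (TC308046). Of the other alternative values for named probes, 60 moved by more than the array spread and 1048 did not. The causes were not tested. Raw signal over the negative controls was lower at 1.5 mm, and its part in the detection of weak transcripts there was not tested. No paired analysis was possible because the array numbers carry no replicate identity and each sample holds 1 stage.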

Other observations

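In a list of YABBY factors made after their values had been seen, yabby15 among them, 3 of 5 ON probes fell (beside 1.80% of all ON probes with a gene model), 0 rose, and 5 of 5 had a log2 ratio below 0 (median -1.19). YAB3 (GRMZM2G106204) gave 287, 272, 158 and 536 at 1.0 mm and 124, 99.5, 107 and 94.5 at 1.5 mm. YAB6 (GRMZM2G074124) gave 190, 273, 168 and 201, and then 81.9, 104, 94.1 and 84.3, which is close to the cutoff. YAB5 (GRMZM2G116646), at 136 ± 13.6 and 92.6 ± 10.8, was without overlap and under 2-fold. With an array left out, 3 or 4 of the 5 fell, and in the Mu-active channel 1 did, with a median of -1.06. Of all ON probes of that channel 0.634% fell. The meristem homeobox gene kn1 (GRMZM2G017087) also fell, from 139, 210, 82.0 and 530 to 77.4, 61.8, 74.9 and 81.5. Array 3 at 1.0 mm lay just above the highest 1.5 mm array, and both were near the cutoff.

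Calreticulins and protein disulfide isomerases help to fold proteins in the endoplasmic reticulum. Some of their genes are given here as single genes picked after their values were seen, and no list of such genes was counted. A calreticulin probe of GRMZM2G134668 rose from 1272, 1318, 1664 and 1451 to 3253, 3507, 2898 and 3089, with a narrow spread at both stages, and the calreticulin gene crt2 (GRMZM2G358059) rose from 206 ± 30.0 to 477 ± 82.1. A protein disulfide isomerase gene, pdi8 (GRMZM2G389173), rose from 509 ± 168 to 1343 ± 130. A second probe of GRMZM2G134668 had a log2 ratio of 0.53.

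Array 1 at 1.0 mm stood nearest to the other stage more often than the other 3 arrays. It gave the highest 1.0 mm value for 49.6% of the 389 risen probes and the lowest for 36.5% of the 457 fallen probes.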
